A study of Mus musculus with 12 samples.

Results

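Neural crest cells leave the dorsal neural tube of the early embryo and give rise to peripheral neurons and glia, pigment cells, the bones and cartilage of the face, and part of the outflow tract of the heart. 8 genes that are widely used to follow these cells were examined: the transcription factors Sox10, Foxd3, Tfap2a, Tfap2b, Pax3, Ets1 and Dlx5, and the receptor Erbb3. They were selected by name, with earlier results of these data known. All 8 were found among the 54532 genes of the deposited table, and all 8 were among the 14804 genes with enough counts to be tested.

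RNA sequencing (RNA-seq) had been done on 12 single mouse embryos of strain C57BL6/J at embryonic day 9.5. Of these, 6 were homozygous for a deleted Traf7 allele (KO, titled TRAF7-*/-*) and 6 were wild type (WT). Whole-body deletion had been obtained with E2a-Cre, which acts in all tissues, on a floxed allele. That allele goes back to 1 stem cell clone, in which part of an intron of 2310061I04Rik was missing as well, and the asterisk marks alleles of that line. The KO may thus combine the loss of both genes, which cannot be told apart here. The series text speaks of brain, whereas the label of every sample gives the embryo, which was followed. Whole embryos were used, so each level sums over all cells that express the gene.

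Library totals ran from 16675204 to 21917571 counts. Traf7 averaged 17.2 ± 2.22 CPM (reads per 1e6 reads of the TMM-scaled library; SD, n = 6) in the 6 KO embryos against 122 ± 11.4 CPM in WT. The fitted log2 fold change was -2.83 (edgeR adjusted p = 2.4e-10). For 2310061I04Rik the means were 2.38 ± 1.99 and 12.1 ± 3.64 CPM (log2 fold change -2.35, adjusted p = 0.155). KO 6 held 6.39 CPM of it and the other KO embryos 1.14 to 2.03 CPM, all below the lowest WT embryo (7.20 CPM). Over all genes, edgeR called 0 higher and 3 lower in KO at an adjusted p of 0.05. At an unadjusted p of 0.05 the counts were 1501 higher and 1143 lower, and DESeq2 called 231 higher and 145 lower. The KO embryos were not alike. The 12 tested yolk sac endoderm genes had a median log2 ratio to the WT mean of 2.46 in KO 5, 2.84 in KO 6 and 2.29 in WT 2. It was -3.39 in KO 2, -3.29 in KO 3 and -0.98 to 0.71 in the rest, and the part of this tissue in the crest values was not tested. The 12 tested posterior Hox genes, which mark the rear of the body, had a median log2 ratio to the WT mean of -5.81 in KO 2, -5.60 in KO 3, -3.77 in KO 6 and -1.86 in WT 5, against -0.03 to 0.78 in the other 8 embryos. A list of 26 hypoxia and glycolysis genes had medians of 0.22 to 1.38 in KO and -0.09 to 0.18 in WT, highest in KO 5 (1.38) and KO 3 (0.96). At an unadjusted edgeR p of 0.05, 25 of these genes were higher in KO, against 10.1% of all genes. DESeq2 called 17 of them higher where edgeR called 0. Values without embryos low in posterior Hox genes or highest in hypoxia genes are given for several results below. Some of these values rose and others fell.

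As background, crest cells are set up at the border of the neural plate, where Tfap2a, Pax3 and Zic genes act. Foxd3, Sox10 and the related Sox9 then specify the crest, and Ets1 takes part in the delamination of cranial crest in the chick. Once cells migrate, Sox10 and Erbb3 remain in those that form glia, while Dlx5 marks crest cells that have filled the pharyngeal arches.

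RefSeq promoter windows on GRCm38.p6 could be matched for 3 of the 8 genes (4 windows). The 250 bases before the start are printed for Foxd3, Tfap2a and Tfap2b, the genes of the specifier and border steps, 2 of which are paralogs. They lie at chr4:99656049-99656298 on the plus strand, chr13:40734921-40735170 on the minus strand and chr1:19211804-19212053 on the plus strand. The Foxd3 stretch ends on the base before the gene's start in the deposited table, whereas the Tfap2a and Tfap2b stretches lie inside the longer intervals given there. Capitals mark matches to 8 motifs searched on both strands.
Foxd3: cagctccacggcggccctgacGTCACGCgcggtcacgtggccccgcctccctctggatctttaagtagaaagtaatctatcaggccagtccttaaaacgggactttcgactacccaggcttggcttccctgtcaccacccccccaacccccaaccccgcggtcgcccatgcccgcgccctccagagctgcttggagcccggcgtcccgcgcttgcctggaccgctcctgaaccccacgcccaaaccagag
Tfap2a: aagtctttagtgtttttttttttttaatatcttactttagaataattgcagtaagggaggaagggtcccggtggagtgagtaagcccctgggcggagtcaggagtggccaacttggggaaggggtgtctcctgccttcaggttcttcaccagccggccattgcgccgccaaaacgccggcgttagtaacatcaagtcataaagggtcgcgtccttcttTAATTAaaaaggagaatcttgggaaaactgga
Tfap2b: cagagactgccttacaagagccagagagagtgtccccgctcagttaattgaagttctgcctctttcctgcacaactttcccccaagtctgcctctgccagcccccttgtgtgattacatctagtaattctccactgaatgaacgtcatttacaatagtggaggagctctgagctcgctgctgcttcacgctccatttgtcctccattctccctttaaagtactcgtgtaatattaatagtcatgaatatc
The motifs were the TFAP2 palindrome (GCCNNNGGC), 2 SOX sites (ACAAAG and ACAATG), an ETS core (CGGAAG), a homeodomain site (TAATTA), a forkhead site (TGTTTAC), a PAX paired-domain site (GTCACGC) and a TCF/LEF site (CTTTGAT). The Foxd3 window held the PAX site from -229 to -223, a match found in 2.09% of 32851 windows of 300 bases. The Tfap2a window held the homeodomain site from -32 to -27, which 5.29% of windows hold. The motifs found in none of the 4 windows were each held by 3.65% (forkhead) to 18.7% (SOX site ACAAAG) of windows. With 8 motifs searched, a match in some windows is near the background. The capitals did not overlap another motif. The other Tfap2a window and that of Tfap2b held none of the 8 motifs. GC content of the Foxd3 stretch was 65.6%, against 47.6% and 46.4% for the Tfap2a and Tfap2b stretches. A match in letters is a description and shows no binding.

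The levels of the 8 genes were first compared with each other in WT embryos on the FPKM scale, which corrects for gene length. Ets1 was at the top with 11.7 ± 0.409 FPKM (SD, n = 6), followed by Sox10 with 9.95 ± 2.16 FPKM. The next level, Pax3, was 5.53 ± 0.759 FPKM, and the lowest Sox10 embryo (7.69 FPKM) lay above the highest Pax3 embryo (6.51 FPKM). Below Pax3 came Tfap2b (5.12 FPKM), Erbb3 (4.80), Dlx5 (4.31), Foxd3 (3.89) and Tfap2a (3.73). The ranges of neighbours in this order overlapped, except between Sox10 and Pax3, so only that step exceeded the spread between WT embryos. Among the tested genes the 8 lay between percentile 43.7 (Tfap2a) and 69.9 (Ets1) of mean WT FPKM.

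**Figure D1:**
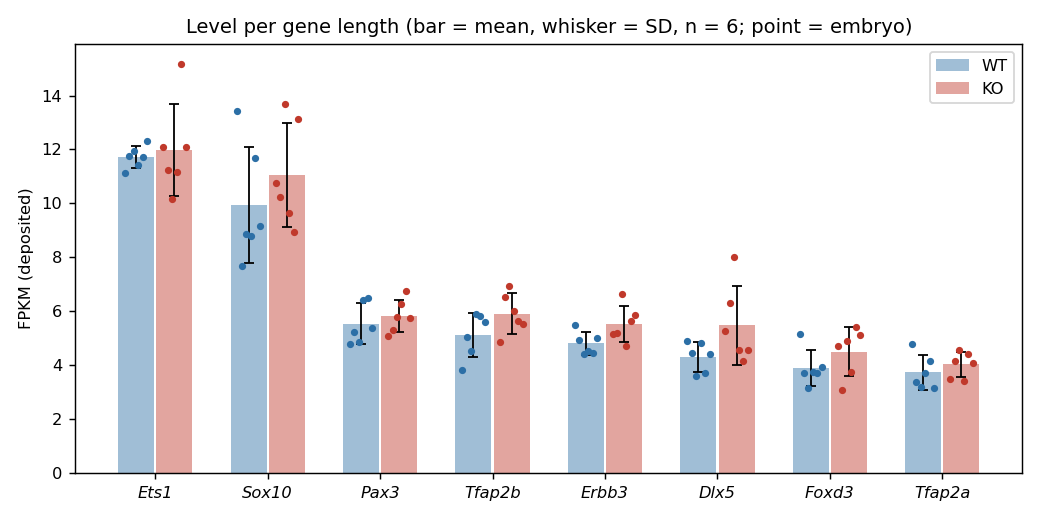
Level of the 8 neural crest genes per gene length, in FPKM as deposited, ordered by the WT mean; bars are means, whiskers SD (n = 6) and points embryos. Ets1 and Sox10 stood above the other 6 genes in WT, at 11.7 and 9.95 FPKM against 3.73 to 5.53 FPKM.

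Each gene was then compared between KO and WT embryos. None of the 8 passed the test: edgeR adjusted p-values ran from 0.23 (Erbb3) to 0.826 (Ets1), against 0.0203% of all genes called lower and 0% called higher. DESeq2, which called 1.69% of genes higher and 1.06% lower, and voom, which called 0.142% higher and 0.169% lower, also called 0 of the 8. At an unadjusted p of 0.05 there were 2 of 8, Erbb3 and Dlx5, both higher in KO, where 10.1% of all genes were higher at that level and 7.72% lower. All 8 fitted log2 fold changes lay above 0, against 51.6% of all genes, with a median of 0.19 against 0.01 over all genes. KO and WT embryos overlapped for all 8, as they did for most genes. The groups separated, KO above WT, for 1.09% of all genes and, KO below WT, for 1.74%, so overlap for all 8 is near the background. Fewer crest cells and less RNA per cell cannot be told apart in whole embryos, nor can more of either.

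**Figure D2:**
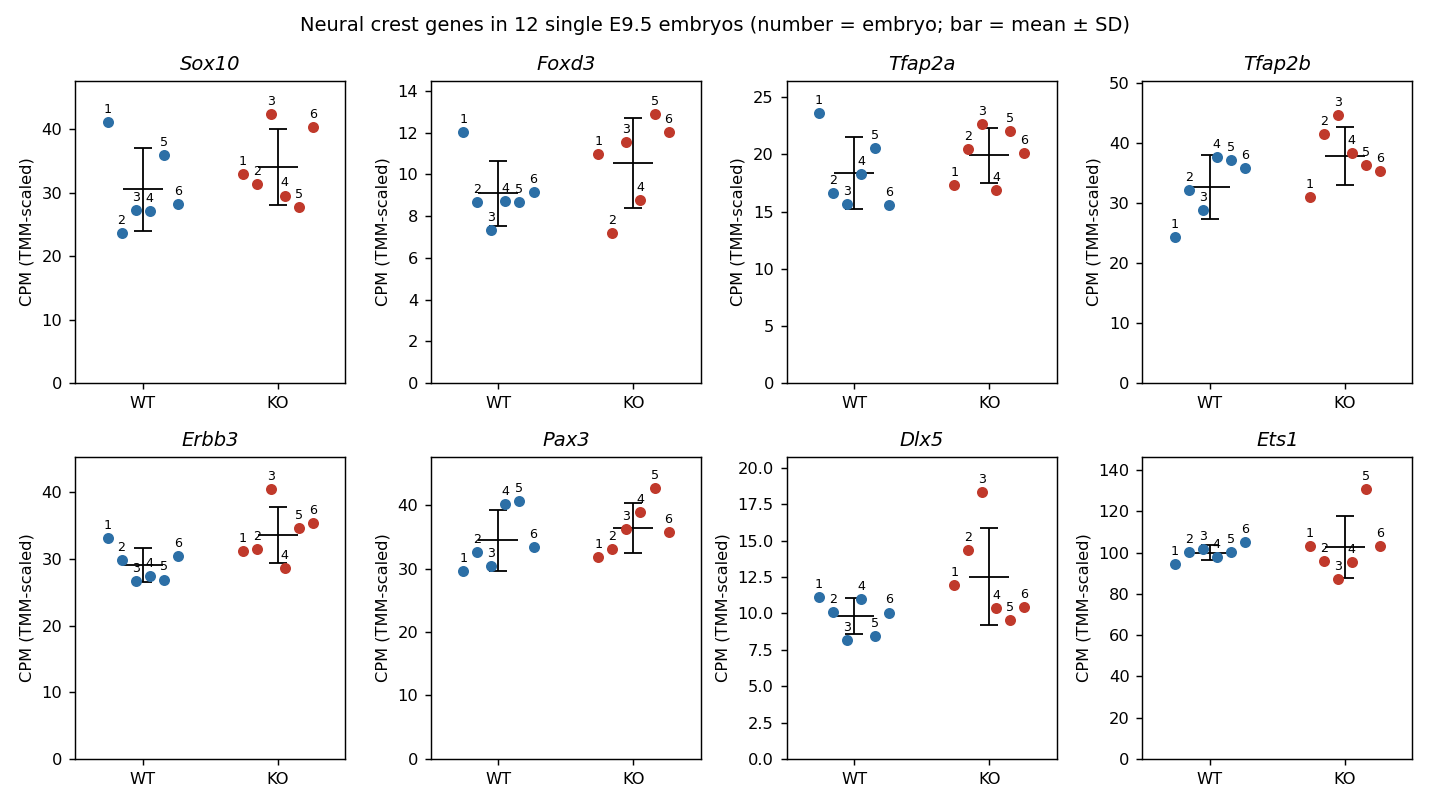
CPM of each neural crest gene (vertical axes start at 0) in the 6 WT and 6 KO embryos; numbers are embryos, bars mean ± SD. The groups overlapped for every gene, and KO 3 was the highest KO embryo for Sox10, Tfap2a, Tfap2b, Erbb3 and Dlx5.

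Sox10 (chromosome 15, 79154908 to 79165240, minus strand, GRCm38) encodes an HMG-box factor needed for peripheral glia and pigment cells. In KO it measured 27.8 CPM at the lowest, 32.2 at the median and 42.4 at the highest, and in WT 23.6, 27.7 and 41.1 CPM. High embryos were found in both groups, KO 3, KO 6 and WT 1 standing above 40 CPM, and 1 of 6 KO embryos exceeded the highest WT. Between KO and WT the log2 fold change came to 0.16 (SE 0.141, edgeR adjusted p = 0.565). Its 95% interval runs from -0.14 to 0.46, which leaves room for a loss to 0.905 or a gain to 1.38 times the WT level. Without the 4 embryos low in posterior Hox genes the value was 0.03. Among its SoxE relatives, Sox9 averaged 72.5 ± 9.65 CPM in KO against 65.1 ± 6.32 in WT (log2 fold change 0.16, interval -0.03 to 0.34). Sox8 measured 9.77 ± 2.80 and 8.75 ± 1.82 CPM (0.16, interval -0.24 to 0.56).

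Foxd3 (chromosome 4, 99656299 to 99658622, plus strand) encodes a forkhead factor of the premigratory crest. Its KO values were 7.19 CPM at the lowest, 11.3 at the median and 12.9 at the highest, against 7.33, 8.71 and 12.01 CPM in WT. The KO embryos spanned more than the WT range: KO 5 was the highest and KO 2 the lowest of all 12, and 5 of the 6 WT embryos lay at 9.16 CPM or below. Its fitted log2 fold change was 0.22 (SE 0.151, edgeR adjusted p = 0.46; interval -0.11 to 0.54). It was 0.10 without KO 3 and KO 5 and 0.30 without KO 2 and KO 3, both alternatives chosen after seeing the data.

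Tfap2a and Tfap2b encode AP-2 factors, and in the mouse Tfap2a is required for closure of the head folds and formation of the face. Tfap2a (chromosome 13, 40715302 to 40738376, minus strand) ran from 16.9 through a median of 20.3 to 22.7 CPM in KO, and from 15.6 through 17.5 to 23.6 CPM in WT. No KO embryo exceeded the highest WT embryo, WT 1. Its log2 fold change was 0.12 (SE 0.115, adjusted p = 0.61; interval -0.13 to 0.36). Antisense genes that overlap Tfap2a held 43, 8 and 2 counts against 4267 for Tfap2a in all 12 libraries.

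Tfap2b (chromosome 1, 19208914 to 19238576, plus strand) ran from 31.0 through a median of 37.3 to 44.7 CPM in KO, and from 24.3 through 34.0 to 37.6 CPM in WT. KO 2, KO 3 and KO 4 lay above every WT embryo, and WT 1, the highest embryo for Tfap2a, was the lowest of all 12 for Tfap2b. Its log2 fold change was 0.21 (SE 0.112, adjusted p = 0.326; interval -0.03 to 0.45). It was 0.09 without KO 2, KO 3 and KO 5, and 0.11 without KO 2 and KO 3, the latter chosen after seeing the data. Tfap2c, the third AP-2 gene examined, averaged 11.7 ± 2.17 CPM in KO against 10.9 ± 1.29 in WT (log2 fold change 0.12, adjusted p = 0.656).

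Pax3 (chromosome 1, 78101267 to 78197134, minus strand) encodes a paired-box factor of the dorsal neural tube and crest that is also made by the dermomyotome, the source of skeletal muscle. Its KO values were 31.7, 35.95 and 42.6 CPM at the lowest, median and highest, and its WT values 29.6, 33.0 and 40.6 CPM. Each group held both low and high embryos, and only KO 5 lay above the WT range. For Pax3 the log2 fold change came to 0.08 (SE 0.0952, adjusted p = 0.686; interval -0.12 to 0.28). Its paralog Pax7 measured 14.3 ± 3.22 and 13.3 ± 2.95 CPM (0.10, interval -0.25 to 0.46). The 13 dermomyotome and muscle progenitor genes had a median log2 fold change of -0.29, 10 below 0 and 3 above, with none called and 1 lower at an unadjusted p of 0.05. Their summed level was 166 to 256 CPM in KO and 247 to 263 CPM in WT, with none of the 13 at 0 counts. The part of these cells in the Pax3 level was not tested.

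Ets1 (chromosome 9, 32636221 to 32757820, plus strand) encodes an ETS factor that is shared by cranial and cardiac crest, endothelium and blood cells. The WT embryos were tight, at 94.6, 100.2 and 105 CPM for the lowest, median and highest. The KO embryos ran from 87.4 through 99.4 to 131 CPM, with KO 3 below and KO 5 above every WT embryo. The log2 fold change was 0.04 (SE 0.0791, adjusted p = 0.826; interval -0.13 to 0.21), and it was -0.04 without KO 5. The ETS relatives Fli1 and Erg, both found in endothelium, had log2 fold changes of -0.06 (interval -0.25 to 0.13) and 0.02 (interval -0.25 to 0.29). In KO 5 the median log2 ratio of 13 endothelium and blood genes to the WT mean was 0.22 and in KO 3 it was -0.30, the highest and the lowest of the 12 embryos. The list was split in KO 5, where 7 of the 13 genes lay above the WT mean, against 9 in WT 1 and 10 in WT 3. In that embryo Erg was the highest of the 12 (21.1 CPM) and Fli1 the lowest (22.1 CPM). The summed level of the 13 genes was 1014 to 1932 CPM in KO and 1137 to 1992 CPM in WT, and their part in the Ets1 level was not tested.

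Erbb3 (chromosome 10, 128567523 to 128589652, minus strand) encodes a receptor for neuregulins with little kinase activity of its own, which signals together with Erbb2 in migrating crest and early Schwann cells. The KO embryos measured 31.2, 31.4, 40.5, 28.6, 34.6 and 35.4 CPM (KO 1 to KO 6). The WT embryos measured 33.2, 29.9, 26.7, 27.4, 26.9 and 30.4 CPM (WT 1 to WT 6). KO 3, KO 5 and KO 6 lay above all WT embryos and none lay below them. The fitted log2 fold change came to 0.21 (SE 0.0853, unadjusted p = 0.0261, edgeR adjusted p = 0.23), and its interval of 1.02 to 1.31 times the WT level does not allow for the adjustment over all genes. Leaving out KO 3 gave 0.15 (unadjusted p = 0.0699), and leaving out the 4 embryos low in posterior Hox genes gave 0.09.

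The partners of Erbb3 were read from the same fit. Erbb2, the co-receptor, averaged 85.9 ± 8.84 CPM in KO against 81.7 ± 6.06 in WT (log2 fold change 0.07, adjusted p = 0.594). Nrg1, the ligand, measured 5.36 ± 1.12 and 4.37 ± 0.579 CPM (0.30, adjusted p = 0.306). Erbb4, a further neuregulin receptor that is prominent in heart and hindbrain, measured 8.02 ± 2.84 and 5.12 ± 1.01 CPM, the log2 fold change of 0.65 (SE 0.209) being the largest of 29 receptor and guidance genes (adjusted p = 0.18). KO 5 was the highest embryo for Erbb2, Erbb4 and Nrg1, with 102.8, 13.2 and 7.52 CPM, but not for Erbb3.

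Dlx5 (chromosome 6, 6877805 to 6882085, minus strand) encodes a homeodomain factor of the lower pharyngeal arches, which is also made in the otic vesicle, the limb bud ridge and the front edge of the neural plate. The KO embryos measured 11.97, 14.3, 18.4, 10.4, 9.56 and 10.4 CPM (KO 1 to KO 6), and the WT embryos 11.1, 10.1, 8.19, 10.99, 8.45 and 10.1 CPM (WT 1 to WT 6). KO 1, KO 2 and KO 3 lay above all WT embryos, whereas KO 4, KO 5 and KO 6 lay within their range. The log2 fold change was 0.35 (SE 0.156, unadjusted p = 0.0412, edgeR adjusted p = 0.265), the largest of the 8 genes. It was 0.16 without KO 2, KO 3 and KO 5 and 0.07 without the 4 embryos low in posterior Hox genes. Without KO 2 and KO 3, the highest embryos for Dlx5, it was 0.11 (unadjusted p = 0.381), an alternative chosen after seeing the data.

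KO 3 and KO 2 were also the highest of the 12 embryos for genes of the midbrain, forebrain and eye, with median log2 ratios of 0.72 and 0.42 over 15 genes. These genes summed to 213 to 378 CPM in KO and 210.0 to 255 CPM in WT, with none at 0 counts, and their part in the Dlx5 value was not tested. Dlx6, the linked neighbour of Dlx5, showed the same pair of embryos at the top, at 5.59 CPM in KO 3 and 4.37 CPM in KO 2 against 2.60 to 3.91 CPM in WT. Its log2 fold change over all embryos was 0.09 (interval -0.40 to 0.58, adjusted p = 0.865).

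**Figure D3:**
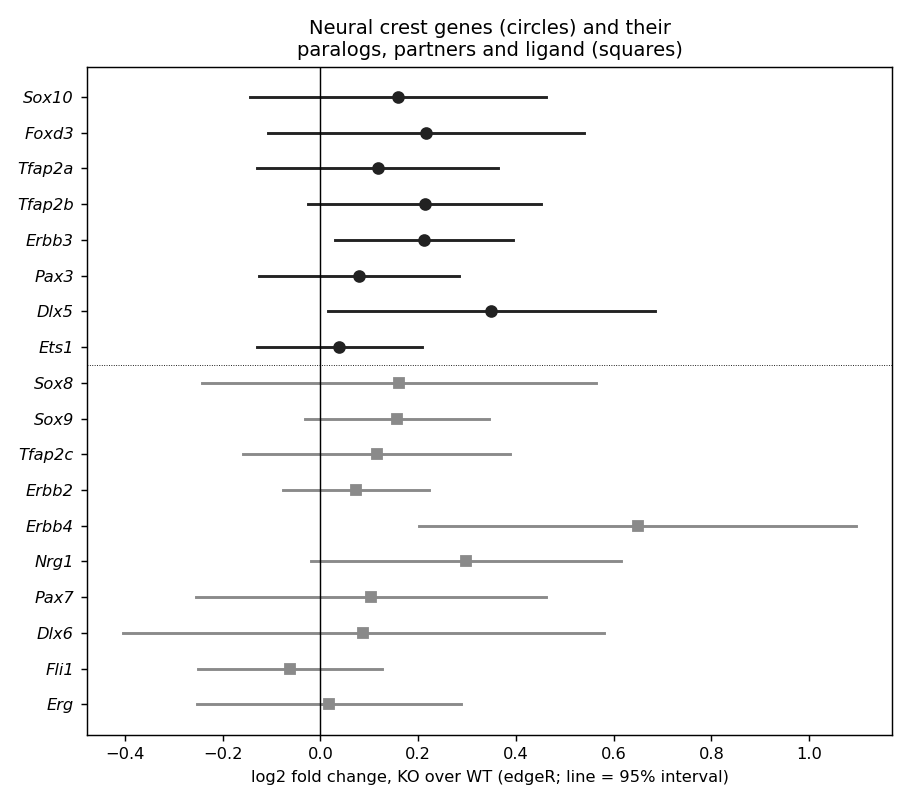
Fitted log2 fold change of KO over WT with its 95% interval for the 8 neural crest genes (circles) and 10 paralogs, receptors, ligand and relatives (squares). All 8 circles lay right of 0, between 0.04 and 0.35, and the intervals of 6 of them crossed 0.

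The spread within groups was then compared. The SD of log2 CPM was larger in KO than in WT for 4 of the 8 genes, against 76.7% of all genes, and the median ratio over all genes was 1.53. Ets1 had a ratio of 3.83, Dlx5 1.90, Erbb3 1.42 and Foxd3 1.38. The other 4 genes had ratios below 1, 0.74 (Tfap2a), 0.75 (Tfap2b), 0.79 (Pax3) and 0.83 (Sox10).

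Single embryos differed in how many of the genes were high. KO 3 was the highest of all 12 embryos for 4 of the 8 genes (Sox10, Tfap2b, Erbb3 and Dlx5) and the lowest for 1, Ets1, with a median log2 ratio to the WT mean of 0.41. KO 5 was the highest for 3 genes (Foxd3, Pax3 and Ets1), with a median of 0.27. KO 6 had all 8 genes above the WT mean but none at the top. KO 4 had 3 of 8 above it, with a median of -0.02.
WT embryos also varied: WT 1 was the highest of the 12 for Tfap2a and the lowest for Tfap2b and Pax3, and WT 3 had 1 of 8 genes above the WT mean. KO 3 and KO 5 were the 2 embryos with the highest hypoxia and glycolysis medians. The summed level of those genes was 13634 to 23651 CPM in KO and 11060 to 14074 CPM in WT, with none at 0 counts, and their part in the crest values was not tested. Posterior Hox genes summed to 0.409 to 271 CPM in KO and 134 to 259 CPM in WT. Of the 16 measured, 13 were at 0 counts in KO 2, 12 in KO 3, 9 in KO 6, 7 in WT 5 and 0 to 3 in the rest. The part of body regions in the crest values was not tested. Without KO 3 and KO 5, the median of the 8 log2 fold changes went from 0.19 to 0.11, with 7 of 8 above 0. It was also 0.11 without KO 2, KO 3 and KO 5 (7 of 8 above 0) and without the 4 embryos low in posterior Hox genes (8 of 8).

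**Figure D4:**
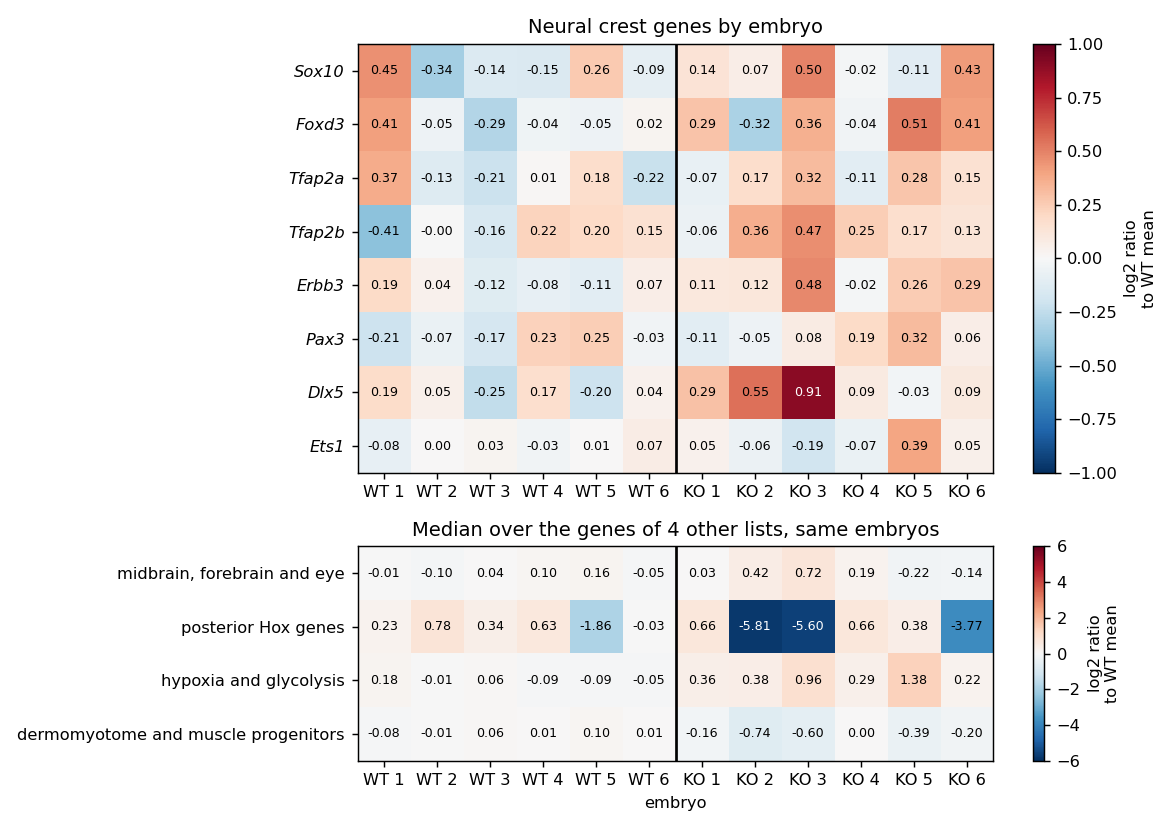
Log2 ratio of each embryo to the WT mean for the 8 neural crest genes (upper panel, scale -1 to 1) and the median over 4 other gene lists (lower panel, scale -6 to 6). KO 3 carried the highest median over the crest genes (0.41) together with a posterior Hox median of -5.60 and a hypoxia median of 0.96.

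Whether the 8 genes varied together was asked over the 12 embryos after removal of group means, on log2 CPM. Of 28 pairs, none reached an adjusted p of 0.05 in a permutation test within groups (100000 permutations, two-sided; lowest adjusted p 0.32 for Pearson's r and 0.253 for Spearman's rho). The highest r was that of Foxd3 and Erbb3, r = 0.69 (p = 0.0237) and rho = 0.75 (p = 0.00905, permutation test). Without KO 2 and WT 1, the 2 embryos farthest from the Foxd3 median, r was 0.68, and without KO 2, KO 3 and KO 5 it was 0.89. In each pair the 2 embryos left out were those farthest from the median of the first-named gene. The second gene was not used for that choice. Sox10 and Tfap2a had r = 0.66 (permutation p = 0.0319) and rho = 0.54 (p = 0.0917). Their r was 0.35 without WT 1 and KO 3, but 0.88 without KO 2, KO 3 and KO 5. Tfap2b and Pax3 had r = 0.61 (permutation p = 0.0542) and rho = 0.66 (p = 0.032). Here r was 0.35 without WT 1 and KO 1, but 0.88 without KO 2, KO 3 and KO 5. Dlx5 and Ets1 ran opposite, with r = -0.69 (permutation p = 0.0593) and rho = -0.66 (p = 0.0408). For this pair r was -0.33 without KO 3 and KO 5, and -0.26 without KO 2, KO 3 and KO 5. The paralogs Tfap2a and Tfap2b had r = -0.04 (permutation p = 0.905) and rho = 0.08 (p = 0.808). Between them r was 0.54 without WT 1 and KO 4 and -0.34 without KO 2, KO 3 and KO 5, so its sign depended on the embryos left out.

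The genes most like each crest gene over the 12 embryos were taken by the same measure from 13413 tested protein-coding genes. Because they were picked as the highest, no test is given, and the genes of an embryo share its library and depth. The highest value was that of Tfap2b with Drp2 (r = 0.97), a dystrophin-related gene of Schwann cells. Second for Tfap2b was Scube1 (r = 0.95). Without KO 2, KO 3 and KO 5 these values were 0.97 and 0.98. Erbb3 was close to Wtip (r = 0.93). Pax3 was closest to Syt9 and Slx4ip (r = 0.92 for both), and Sox10 to Mink1 (r = 0.91) and Rbck1 (r = 0.88). Foxd3 had Rplp0 (r = 0.88) and Gal3st1 (r = 0.87), and Tfap2a had Fhdc1 (r = 0.87) and Enpp2 (r = 0.86). For Ets1 these were Fxr2 (r = 0.96) and Igfbp5 (r = 0.96), of which Fxr2 was at 0.75 without the 3 embryos. Dlx5 had Phactr4 (r = 0.93) and Plscr3 (r = 0.91), which were at 0.80 and 0.79 without them.

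The wider crest programme was read as counts from the same fit, list by list. edgeR called 0 genes in each of the 10 lists that follow, and voom also called 0 in each. DESeq2 called 1 gene in 2 of them, named below. Over all genes 51.6% lay above 0, and at an unadjusted p of 0.05 10.1% were higher and 7.72% lower, so 1 or 2 genes past that level in a list of 10 to 20 is near the background.

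Upstream of the crest, 17 genes of the dorsal neural tube and plate border had 13 log2 fold changes above 0 and 4 below, with a median of 0.14. Of these, 3 were higher at an unadjusted p of 0.05 and none lower: Zic2 (0.30, adjusted p = 0.204), Lmx1a (0.25, adjusted p = 0.209) and Wnt1 (0.31, adjusted p = 0.267). Zic2, a zinc finger factor of the border, measured 45.9 to 49.9 CPM in WT and reached 72.0 CPM in KO 3 and 74.3 CPM in KO 5. Without KO 2, KO 3 and KO 5 the list had 6 genes above 0 and 11 below, with a median of -0.05.

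The 20 other crest specifiers had 14 above 0 and 6 below (median 0.05). The adhesion gene Cdh6 (0.20, adjusted p = 0.209) and the repressor Zeb2 (0.15, adjusted p = 0.237) were the 2 higher at an unadjusted p of 0.05. The 29 receptor and guidance genes had 21 above 0 and 8 below (median 0.15), with 4 higher at an unadjusted p of 0.05. Besides Erbb4 these were Epha4 (0.21, adjusted p = 0.22) and Robo1 (0.17, adjusted p = 0.272), both guidance receptors, and Kit (0.43, adjusted p = 0.246), the receptor of melanoblasts, germ cells and blood progenitors. Kit was at 60.6 CPM in KO 5 and 24.5 to 40.0 CPM in WT. Without KO 2, KO 3 and KO 5 the receptor list had 15 above 0 and 14 below (median 0.01).

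Among the fates of the crest, 10 tested genes of glial crest and Schwann cell precursors had 8 above 0 and 2 below (median 0.10). The direction was lost with voom (4 above and 6 below, median -0.04) and without KO 2, KO 3 and KO 5 (4 above and 6 below, median -0.11). The cadherin Cdh19, a marker of Schwann cell precursors, averaged 1.67 ± 0.474 CPM in KO against 1.11 ± 0.319 in WT (0.59, adjusted p = 0.244) and was the gene of this list higher at an unadjusted p of 0.05, with none lower. Gfra3 measured 2.82 ± 1.86 and 4.47 ± 1.34 CPM (-0.67, adjusted p = 0.418), with KO 2 at 0.682 and KO 3 at 0.763 CPM and the other 4 KO embryos at 2.53 to 4.90 CPM. Of 8 pigment genes 4 were tested, all above 0 (median 0.19), with Kit higher at an unadjusted p of 0.05. Of these 4, Kit and Ednrb are in the receptor list too, and Pmel averaged 0.638 CPM in WT. With voom, and without KO 2, KO 3 and KO 5, 2 lay above 0 and 2 below (medians 0.08 and 0.04), and the list was highest in KO 5, at a median log2 ratio to the WT mean of 0.62. The enzymes of pigment synthesis, Dct, Tyrp1 and Tyr, held 29, 3 and 4 counts over all 12 libraries, so a difference was not detectable at this depth.

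The 11 sensory ganglion genes had 3 above 0 and 8 below (median -0.09), with 1 higher and 1 lower at an unadjusted p of 0.05. Neurog2, a proneural factor of sensory precursors and of the neural tube, averaged 16.02 ± 3.09 CPM in KO against 21.8 ± 3.24 in WT (-0.45, edgeR adjusted p = 0.169), and DESeq2 called it lower. Ntrk2, a neurotrophin receptor, measured 16.2 ± 6.15 and 10.7 ± 1.93 CPM (0.60, adjusted p = 0.201). KO 3 and KO 5 were at 22.5 and 25.01 CPM, while KO 1, KO 4 and KO 6 lay within the WT range of 8.48 to 13.8 CPM. Without KO 3 and KO 5 the sensory list had 6 above 0 and 5 below (median 0.03). The 9 tested autonomic and enteric genes had 4 above 0 and 5 below (median -0.01), with 0 at an unadjusted p of 0.05, and a median of -0.23 without KO 2, KO 3 and KO 5.

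The 23 genes of cranial ectomesenchyme, to which Dlx5 is closest in role, had 10 above 0 and 13 below (median -0.05). Lhx6, a factor of the oral side of the first arch, was lower at an unadjusted p of 0.05 (-0.42, adjusted p = 0.244), and no other gene of the list was past it. Hand1 and Hand2, which are shared with heart and lateral mesoderm, had log2 fold changes of -0.82 and -0.44 (adjusted p = 0.338 and 0.306), with KO 3 the lowest embryo for both at 4.02 and 13.5 CPM. The 11 cardiac crest and outflow tract genes had 5 above 0 and 6 below (median -0.01), with Tbx3 lower at an unadjusted p of 0.05 (-0.25, adjusted p = 0.246). Of 20 placode and surface ectoderm genes, which share Tfap2a with the crest, 14 were above 0 and 6 below (median 0.08), and 9 above and 11 below without KO 2, KO 3 and KO 5 (median -0.03). Foxi2, a forkhead gene of the head ectoderm, measured 18.9 ± 4.95 and 12.8 ± 1.34 CPM (0.56, edgeR adjusted p = 0.169), and DESeq2 called it higher. It was the only gene of that list at an unadjusted p of 0.05.

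**Figure D5:**
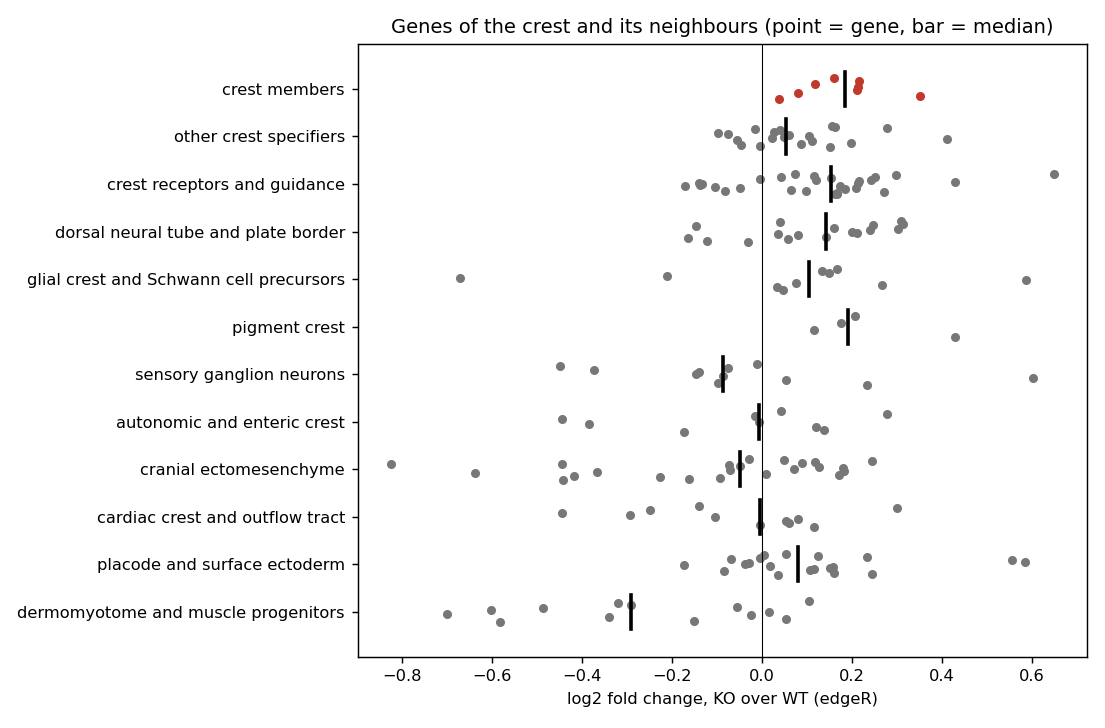
Log2 fold change of KO over WT (edgeR) for every tested gene of 12 lists; points are genes and bars list medians. The 8 crest genes (top) had a median of 0.19, the dorsal neural tube genes 0.14 and the dermomyotome genes -0.29, with no gene of these lists called by edgeR.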

How the data were processed

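The authors deposited 1 table for the 12 libraries, with raw read counts per gene and FPKM values (counts per kilobase of gene length, scaled to the library total by the authors' pipeline). A service company had made the libraries and run its standard pipeline on build GRCm38, per the submitters' processing notes. Aligner, counter and strand setting: not given in the sources used here. Reads of antisense genes therefore cannot be told apart. The authors' group means, fold changes and p-values in the same table were not used.

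The deposited counts were tested in R 4.3.3 with edgeR 4.0.16 (quasi-likelihood F test, robust fit, TMM, filterByExpr, group as the only term), with Benjamini-Hochberg adjustment over 14804 genes and calls at 0.05. All tests were two-sided. DESeq2 1.42.0 (the study's test), voom in limma 3.58.1, other filters and scalings, a replicate block and left-out embryos were alternatives. 95% intervals are those of the fitted log2 fold change, unadjusted. Correlations used log2 CPM (prior count 2), and their permutation p-values were added after the data were seen. The test was checked on simulated counts.

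The genes and lists were chosen with earlier results of these data known. The named genes are the 8 members, Traf7, 2310061I04Rik, fixed paralogs and partners, up to 4 genes of smallest p per list, and 2 genes most like each member, of which 1 is not reported here. Dct, Tyrp1 and Tyr, listed pigment genes below the filter, were named after their values were seen. Libraries held 16675204 to 21917571 counts; 3 counts equal 0.136 to 0.18 CPM, for counting error only. Nothing states which embryos were littermates, so p-values rest on the spread between single embryos. No library was a copy of another.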

Additional observations from a re-analysis of the deposited data

Results flagged for a closer look

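Ets1 in KO 5 stood apart from the other KO embryos, with 131 CPM where the remaining 5 had 87.4 to 103 CPM. The gap to the nearest embryo was 0.636 of the whole KO range, above Dixon's 95% critical value for 6 samples. It was 1 of 16 groups of 6 embryos examined, and chance flags about 1 in 20. Endothelium and blood genes had their highest median log2 ratio to the WT mean in the same embryo (0.22), although only 7 of the 13 lay above that mean there. Hypoxia and glycolysis genes had their highest median in KO 5 too (1.38). The part of either list in the Ets1 level was not tested.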

How the results depend on the processing

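None of the 8 crest genes was called under any of 24 alternatives. The log2 fold change turned below 0 for Tfap2a without KO 2, KO 3 and KO 5 (-0.0208), and for Ets1 with voom (-0.0221), without KO replicate 5 (-0.0436) and without KO 3 and KO 5 (-0.0083, chosen after seeing the data); the cause was not tested. With 1 embryo left out, Ets1 ran from -0.0436 to 0.0812, Dlx5 from 0.21 to 0.42, Sox10 from 0.09 to 0.26, Foxd3 from 0.15 to 0.31, Tfap2a from 0.07 to 0.20, Tfap2b from 0.14 to 0.26, Erbb3 from 0.15 to 0.25 and Pax3 from 0.03 to 0.13. The number of genes called, 3 in the main test, was 376 with DESeq2 (13651 genes with an adjusted p), 46 with voom, 36 without KO 2, KO 3 and KO 5, 41 without KO 3 and KO 5, and 2 to 5 with 1 embryo left out, the 5 being without KO 5. A list median counted as moved only if its shift reached the within-group SD between embryos of the list's mean log2 CPM. By that measure 10 of 408 list medians moved, and a change of sign alone did not count. The median over all genes was 0.03 without TMM scaling, with 56.6% of genes above 0.

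Replicate numbers are shared by the groups but did not pair the embryos: same-numbered embryos had correlations of their deviations of 0.28, -0.32, -0.11, 0.20, -0.26 and -0.11. With the replicate block 2 genes were called, and the crest genes had log2 fold changes of 0.03 (Ets1) to 0.32 (Dlx5), with none called.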
